A study of Mus musculus with 24 samples.

Results

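The keratins of simple epithelia (Krt7, Krt8, Krt18 and Krt19), the annexins Anxa1, Anxa2, Anxa3, Anxa5 and Anxa6, and S100a10 were followed in RNA from the otocyst of the mouse embryo, the precursor of the inner ear. These 10 genes, of 15736 in the count table, were chosen by measured values: the effect of a blocking FGF receptor transgene on Krt7 and Anxa2 differed more than that on most genes between an early and a late start of its expression. All 10 were found in the table by symbol, and all 10 passed the filter on low counts in each exposure. Otocyst epithelium was dissected from embryos of pregnant females given doxycycline, first as a 1.5 mg/kg injection and then as 200 mg/kg chow. Embryos called con were Rosa26rtTA/+, so they carried only the doxycycline-dependent activator rtTA at the Rosa26 locus. Embryos called R2b were Rosa26rtTA/+;Tg(tetO-s(dn)Fgfr2b)/+ and added a transgene for a soluble dominant-negative FGFR2b. Both groups received doxycycline. The Rosa26 locus is active in most cell types and the transgene product is secreted, so neither the driver nor the protein is limited to the ear. The exposure called E9.75+12h began at E9.75 and lasted 12 hours (3 litters), E9.25+24h began at E9.25 and lasted 24 hours (4 litters), and both reached E10.25. The exposure called E10.25+24h began there, lasted 24 hours (4 litters) and reached E11.25. A con pool and an R2b pool came from every litter, which makes 22 libraries.

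Keratins are the intermediate filament proteins of epithelial cells, built as pairs of a type I and a type II chain. Krt8 (type II) and Krt18 (type I) form the pair found in simple, single-layered epithelia of the embryo, and a chain without its partner is degraded. Krt7 (type II) and Krt19 (type I) join them in many ducts and lining epithelia. Annexins are cytosolic proteins that bind acidic phospholipids in membranes when calcium rises, and they act in membrane repair, exocytosis and endocytosis. S100a10 is an S100 protein that has lost calcium binding and is stabilised by its partner Anxa2, with which it links membranes to actin. FGF signalling through FGFR2 acts on the otic epithelium by way of ERK, and ETS family transcription factors, which bind a GGAA core, are among its outputs. AP-1 factors, which bind TGANTCA, are another ERK output.

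Library totals were 18.7 to 28.2 M counts. Levels are given as CPM, the reads of a gene per M reads of the library, scaled by the trimmed mean of M-values (TMM), with SDs between litters. All 11 otic epithelium markers listed, Pax2, Oc90 and Cdh1 among them, had reads in every library, and their summed level was 1580 to 7117 CPM. Of 14 FGF readout genes, 12 were called lower in R2b in each of the E9.75+12h and E9.25+24h exposures, and 0 at E10.25+24h, where 11 were called with the litter as a block and litter 1 left out. Without 1 litter these counts fell to 8 at E9.75+12h (litter 1) and to 7 at E9.25+24h (litter 2; 8 without litter 1). Flrt3 was called higher at E9.25+24h (0.71, FDR 0.000768, edgeR). Ighg1, the immunoglobulin heavy chain part of the transgene's product, and Fgfr2 served as a check of the labels. Ighg1 was 1025 to 3056 CPM in the R2b pools of the first 2 exposures and 0.0481 to 1.99 CPM in their con pools. At E10.25+24h the labels did not hold in litter 1: the library labelled con had 679 CPM of Ighg1 and 879 CPM of Fgfr2, while the library labelled R2b had 54.6 and 313 CPM. The con pool of litter 3 of that exposure also had 201 CPM of Ighg1. The members' effects at E10.25+24h are therefore given with and without litter 1, and no library was moved to another group. Values without litter 1 still include the con pool of litter 3 with its transgene reads. Library numbers in the labels differ by exposure, so a difference in level between exposures cannot be told apart from one between these sets of libraries.

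Per length of the annotated principal transcript, the members spanned a wide range in con pools at E9.75+12h. Krt18 was the most abundant at 168 ± 18.8 CPM per kb (SD, n = 3), followed by its partner Krt8 at 51.2 ± 5.88 CPM per kb. S100a10 (35.1 ± 6.13) and Anxa5 (33.9 ± 3.96) did not differ beyond their spread, nor did Krt19 (23.7 ± 3.80) and Anxa2 (22.6 ± 4.04), all in CPM per kb. Anxa6 stood at 15.2 ± 4.14 and Krt7 at 8.46 ± 0.515 CPM per kb. Anxa3 and Anxa1 were the lowest of the 10, at 1.56 ± 0.220 and 0.886 ± 0.489 CPM per kb, and Anxa1 rested on as few as 10 counts in a library. The per-length value of Krt7 depends on an annotated transcript of 4094 bases, where that of Krt8 has 1958.

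Krt7 (ENSMUSG00000023039, chr15:101411043-101430313, plus strand, GRCm38) and Anxa2 (ENSMUSG00000032231, chr9:69453620-69491795, plus strand) are the genes whose values chose the group. Krt8 (ENSMUSG00000049382, chr15:101996698-102004482, minus strand) and Krt18 (ENSMUSG00000023043, chr15:102028180-102032027, plus strand) are neighbours that point away from each other. RefSeq promoter windows (GRCm38.p6) of 250 bases before to 50 after the annotated start were matched for 6 of the 10 members: Krt7, Krt8, Krt18, Anxa1, Anxa2 and Anxa5. Krt19, Anxa3, Anxa6 and S100a10 were not matched. For Krt7 the 2 annotations differ: its RefSeq start lies inside the gene span given above. The Krt7 stretch therefore precedes the RefSeq start but not the start of that span. The stretches of Krt7, Anxa2, Krt8 and Krt18 are shown because the first pair chose the group and the second pair moved most closely together. They run 5′ to 3′ on the gene's strand, and bases inside an annotated UTR were left off, so that they cover chr15:101412153-101412401 for Krt7, chr9:69453433-69453619 for Anxa2, chr15:102004483-102004592 for Krt8 and chr15:102027966-102028179 for Krt18. Capitals mark GGAA on either strand (TTCC on the strand shown) and TGANTCA.
Krt7: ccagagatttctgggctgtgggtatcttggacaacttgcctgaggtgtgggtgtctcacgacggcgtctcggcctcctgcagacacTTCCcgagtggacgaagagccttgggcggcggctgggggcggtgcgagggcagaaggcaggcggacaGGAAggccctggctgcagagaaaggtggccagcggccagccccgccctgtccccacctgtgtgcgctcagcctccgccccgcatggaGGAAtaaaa
Anxa2: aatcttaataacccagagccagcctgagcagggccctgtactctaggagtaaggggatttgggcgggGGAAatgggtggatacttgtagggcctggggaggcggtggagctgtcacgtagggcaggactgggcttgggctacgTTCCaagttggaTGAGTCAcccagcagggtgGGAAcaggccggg
Krt8: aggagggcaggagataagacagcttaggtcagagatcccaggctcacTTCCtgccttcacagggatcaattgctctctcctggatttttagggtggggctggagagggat
Krt18: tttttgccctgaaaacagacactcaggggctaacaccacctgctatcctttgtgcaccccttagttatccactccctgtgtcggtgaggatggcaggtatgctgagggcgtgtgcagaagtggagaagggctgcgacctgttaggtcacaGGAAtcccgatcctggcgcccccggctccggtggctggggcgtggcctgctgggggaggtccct
Both motifs were searched on both strands over the whole window, and they do not overlap one another. Positions count from the annotated start base as 0. A TGANTCA match was found in 1 of the 6 member windows, in Anxa2 at -95, and in 7.81% of all 32851 windows of the same length. The Anxa2 window also held GGAA at -183, -107 and -76, so the TGANTCA match lies between those at -107 and -76. Krt7 held GGAA at -164, -97 and -10, and Krt8 at -203, -132 and -30. Krt18 held it at -100 and, downstream of the start, at 17. At least 2 GGAA matches were found in 6 of 6 member windows and in 84.6% of all windows. A match is a description of the letters and not of binding.

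The effects that chose the group were the log2 fold changes of R2b against con at E9.25+24h and at E10.25+24h. For Krt7 the late effect minus the early effect was -1.34 (SE 0.23) on the log2 scale, and for Anxa2 it was -1.53 (SE 0.28). Taken as a ratio to their errors, these differences ranked 2 and 7 of 15688 genes. They were -1.11 (SE 0.19) and -1.35 (SE 0.25) without litter 1 of E10.25+24h. The other members had differences from -0.99 (SE 0.52) for Anxa1 to -0.30 (SE 0.28) for Anxa6, all negative. Without that litter the other differences ran from -0.94 (SE 0.55) for Anxa1 to -0.20 (SE 0.11) for Anxa5, which had been -0.45 (SE 0.18) with it. These values were used in the choice and are descriptions, and so are the members' effects and counts of calls in those 2 exposures.

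**Figure D1:**
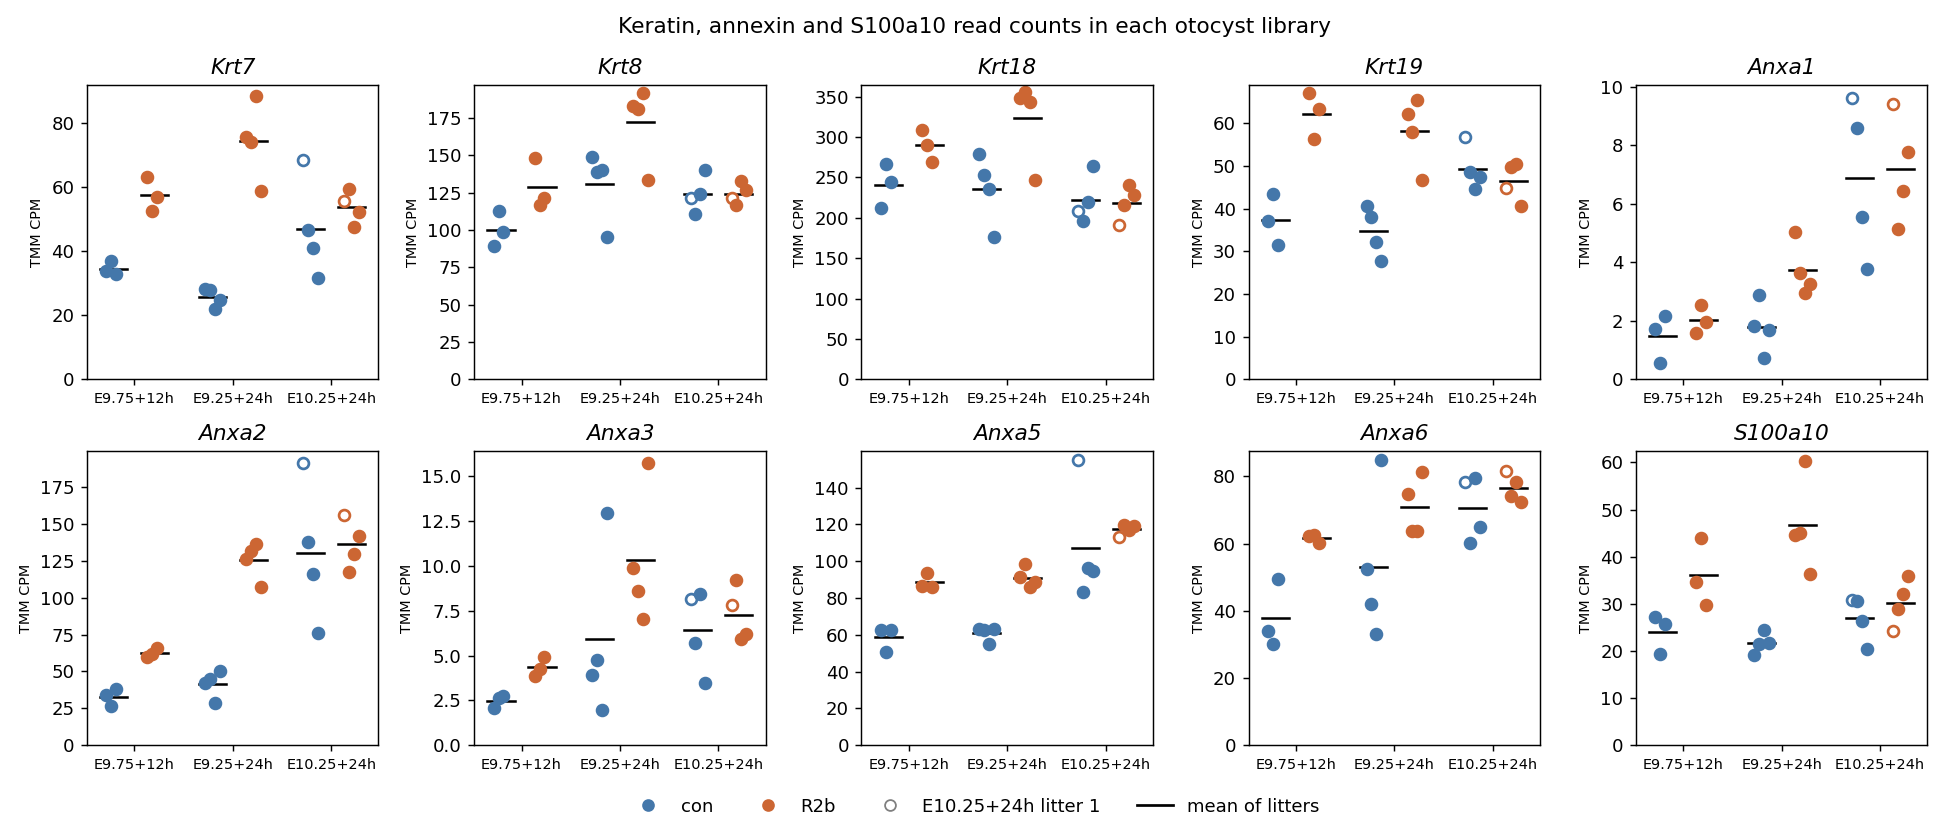
TMM-scaled CPM (vertical axis, from 0) of the 10 genes in each of the 22 libraries, by exposure (horizontal axis) and genotype (blue con, orange R2b); points are litters, horizontal lines are means, and open points are litter 1 of E10.25+24h. Krt7 and Anxa2 R2b pools stand above every con pool at E9.75+12h and E9.25+24h, and the groups overlap at E10.25+24h.

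The exposure that the choice did not use is E9.75+12h, where 12 hours of transgene expression ended at the same stage as the early 24 hour exposure. In it, 8 of the 10 members rose in R2b at an FDR under 0.05 (edgeR's quasi-likelihood test with Benjamini-Hochberg adjustment over 14882 genes). Of all genes tested 1518 were called higher, and 20.0% were called in either direction. Every R2b library lay above every con library for 9 of the 10, against 18.2% of all genes. The members' median log2 fold change was 0.67, where that of all genes was 0.01. Anxa2 changed most, followed by Anxa3, Krt19 and Krt7. Krt18 and Anxa1 did not pass the test.

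Krt7 was at 33.9, 37.0 and 32.9 CPM in the con pools of litters 1, 2 and 3 and at 63.2, 52.6 and 56.9 CPM in the R2b pools. All 3 R2b pools lay above all con pools, and the R2b pool exceeded the con pool of its own litter in 3 of 3 litters. The log2 fold change of Krt7 was 0.76 (SE 0.11, FDR 0.00151, edgeR). Its type I counterpart in ductal epithelia, Krt19 (ENSMUSG00000020911, chr11:100140810-100148665, minus strand), had 37.2, 43.5 and 31.5 CPM in con and 67.0, 56.3 and 63.5 CPM in R2b. Those groups did not overlap either, and the log2 fold change of Krt19 was 0.76 (SE 0.13, FDR 0.00341, edgeR).

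The most abundant pair moved less. Krt8 was at 89.6, 113 and 98.6 CPM in con and at 148, 117 and 121 CPM in R2b, a log2 fold change of 0.38 (SE 0.12, FDR 0.0439, edgeR). The lowest R2b pool of Krt8 (117 CPM) stood just above the highest con pool (113 CPM), both from litter 2. Krt18 was at 213, 266 and 244 CPM in con and at 309, 290 and 270 CPM in R2b, with a log2 fold change of 0.29 (SE 0.10, FDR 0.0721, edgeR), which missed the threshold. The Krt18 groups did not overlap, but the within-litter log2 ratios of litters 2 and 3 were only 0.12 and 0.14.

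Anxa2 had 33.8, 26.3 and 37.8 CPM in con and 59.9, 61.6 and 66.0 CPM in R2b. Its R2b pools were close to each other and all above the con pools, and the log2 fold change was 0.96 (SE 0.13, FDR 0.00116, edgeR). Its partner S100a10 (ENSMUSG00000041959, chr3:93555080-93564643, plus strand) was at 27.2, 19.3 and 25.7 CPM in con and at 34.6, 43.9 and 29.7 CPM in R2b. S100a10 rose by less, with a log2 fold change of 0.61 (SE 0.17, FDR 0.029, edgeR), and litter 2 alone gave its lowest con and its highest R2b pool. Anxa2 and S100a10 therefore both rose, from a con ratio of 0.643 ± 0.0534 Anxa2 per S100a10 (SD, n = 3, CPM per kb) to an R2b ratio of 0.846 ± 0.195 with overlapping libraries.

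Anxa5 (ENSMUSG00000027712, chr3:36448923-36475894, minus strand), known for binding phosphatidylserine on dying cells, was at 62.6, 50.8 and 62.7 CPM in con and at 86.7, 93.7 and 85.9 CPM in R2b. Anxa6 (ENSMUSG00000018340, chr11:54979108-55033445, minus strand), which acts in endocytosis and membrane repair, was at 33.9, 30.2 and 49.6 CPM in con and at 62.2, 62.4 and 60.1 CPM in R2b. In both genes the R2b pools varied little and lay above all con pools. The log2 fold changes were 0.62 (SE 0.11, FDR 0.00374, edgeR) for Anxa5 and 0.72 (SE 0.16, FDR 0.0103, edgeR) for Anxa6.

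Anxa3 (ENSMUSG00000029484, chr5:96793339-96845966, plus strand) was lowly expressed, at 2.09, 2.62 and 2.76 CPM in con and 3.87, 4.26 and 4.91 CPM in R2b. It rose without overlap, with a log2 fold change of 0.83 (SE 0.24, FDR 0.0342, edgeR). Anxa1 (ENSMUSG00000024659, chr19:20373428-20390944, minus strand), a protein induced by glucocorticoids that restrains inflammation, was at 1.73, 0.569 and 2.15 CPM in con and at 1.57, 2.53 and 1.95 CPM in R2b. The Anxa1 groups overlapped, R2b was higher in 1 of 3 litters, and the log2 fold change of 0.47 (SE 0.43, FDR 0.47, edgeR) did not pass the test.

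With the litter as a block, 5 of the 10 members were called higher at E9.75+12h, against 5.79% of all genes. Krt8 (FDR 0.108), Anxa3 (FDR 0.0777) and S100a10 (FDR 0.0821) then missed the threshold in edgeR. Litter 1 weighed most: without it 1 member, Anxa2, was called (FDR 0.0314), while the genes called in all fell from 2973 to 434. Krt7 then had a log2 fold change of 0.67 with an FDR of 0.0609, Krt19 0.63 with 0.0889, and Anxa5 0.48 with 0.0533 (edgeR).

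**Figure D2:**
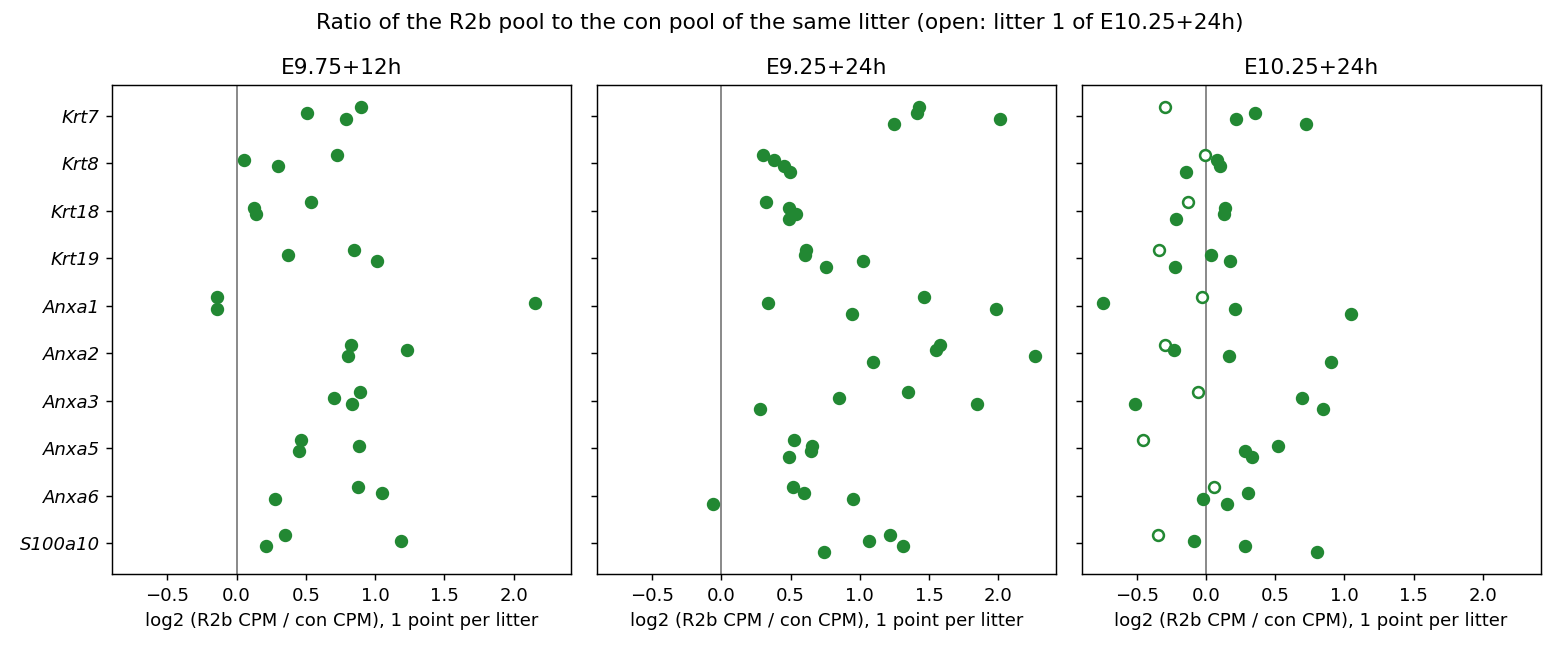
Log2 ratio of R2b to con CPM within each litter (horizontal axis, 1 point per litter) for the 10 genes (rows) in the 3 exposures; open points are litter 1 of E10.25+24h and the vertical line marks equal levels. Most points lie right of the line at E9.75+12h and E9.25+24h, and those of E10.25+24h lie on both sides of it.

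Marker lists of cell types also held calls at E9.75+12h. Of all 14882 genes tested there, 1518 were called higher, and 20.0% were called in either direction. The counts below are read beside that share. Of the 11 otic epithelium markers, 4 were called higher, with Pax2 at 0.78 (FDR 0.00153) and Cdh1, the epithelial cadherin, at 0.47 (FDR 0.00432), and Epcam was called lower (-0.31, FDR 0.0379), in edgeR. Without litter 1 none of the 11 was called, and with the litter as a block 4 were called higher and 0 lower. Of 11 mesenchyme markers tested, 2 were called higher in R2b, the matrix proteoglycans Lum (log2 fold change 1.15, FDR 0.00423) and Dcn (1.03, FDR 0.00851), and the summed level of the list was 141 to 439 CPM in con and 294 to 477 CPM in R2b. Of 5 surface ectoderm markers tested, 2 were called higher in edgeR, namely Wnt3 (1.87 CPM in con and 3.69 CPM in R2b, FDR 0.0287) and Sfn (1.41, FDR 0.0309). With the litter as a block Wnt3 (FDR 0.0648) and Sfn (FDR 0.0695) missed the threshold, and none of the 5 was called with any 1 litter left out. Their list summed to 33.0 to 43.3 CPM in con and 35.7 to 58.6 CPM in R2b. Krt5, Krt14, Krt17, Gabrp and Dsg3, also on the surface ectoderm list, had no row in the count table and were not analysed here. Without litter 3, 8 mesenchyme markers were called higher. None of 10 blood markers was called with all litters (7 were lower without litter 2), with 22.7 to 817 CPM in con and 96.1 to 123 CPM in R2b, and 1 of 11 endothelium markers, the receptor Tek, was called lower (-1.41, FDR 0.0158), with 4 lower without litter 2 and 0 without litter 1 or 3. The part of other cell types in the members' rise was not tested. In pooled tissue, fewer cells of a type and less RNA per cell cannot be told apart.

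At E9.25+24h, 24 hours of transgene expression from the earlier start, Krt7 and Anxa2 stood furthest from their controls. Krt7 was at 28.2, 27.8, 22.0 and 24.7 CPM in the con pools of litters 1 to 4 and at 75.6, 74.2, 88.7 and 58.8 CPM in the R2b pools. Its lowest R2b pool stood well above its highest con pool, and the fitted difference was 1.54 (SE 0.13) on the log2 scale, a 2.90-fold higher level. Anxa2 was at 42.3, 45.0, 28.4 and 50.2 CPM in con and at 126, 132, 137 and 107 CPM in R2b. That gene differed by 1.60 (SE 0.16) on the log2 scale, 3.03-fold, with all 4 litters in the same direction. S100a10 followed with 19.2, 21.6, 24.4 and 21.7 CPM in con and 44.6, 45.1, 60.4 and 36.4 CPM in R2b, a log2 difference of 1.11 (SE 0.15).

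Krt8 and Krt18 were higher in the R2b pool of every litter at E9.25+24h, yet their groups overlapped. Krt8 was at 149, 139, 140 and 95.0 CPM in con and at 183, 181, 192 and 134 CPM in R2b. Litter 4 gave the lowest pool of both genotypes. Krt18 behaved alike, with 278, 253, 236 and 176 CPM in con and 348, 355, 344 and 247 CPM in R2b. Their log2 differences were 0.40 (SE 0.16) and 0.46 (SE 0.16), while the 4 within-litter ratios of Krt8 varied with an SD of only 0.09 on the log2 scale.

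Krt19 was at 27.7 to 40.7 CPM in con and 46.8 to 65.5 CPM in R2b, with a log2 difference of 0.75 (SE 0.14) and no overlap. Anxa5 was at 54.8 to 63.3 CPM in con and 85.9 to 98.4 CPM in R2b, a log2 difference of 0.58 (SE 0.06), the smallest error of any member. Anxa1 differed by 1.06 (SE 0.36), from 0.745 to 2.88 CPM in con to 2.95 to 5.05 CPM in R2b, without overlap. Anxa3 (0.81, SE 0.51) and Anxa6 (0.43, SE 0.25) overlapped, with a high con pool in litter 4, at 12.98 CPM for Anxa3 where the other con pools had 1.97 to 4.77 CPM. For Anxa6 that pool had 84.8 CPM, above its own R2b pool at 81.3 CPM and above the 33.0 to 52.3 CPM of the other con pools.

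Counts of calls at E9.25+24h describe the contrast that the choice used, and nothing is read from them. By edgeR 5 of the 10 members had an FDR under 0.05, all higher and Krt7 and Anxa2 among them, where 9.09% of genes were called higher and 15.6% in either direction. R2b lay above every con library for 6 of 10, against 12.1% of genes. The median of the 10 was 0.78, and that of all genes was -0.01. With the litter as a block all 10 were called, against 20.5% of genes called higher. DESeq2 called 8 members, where it called 3260 genes in either direction. Without litter 4 the members' count was 9, where 2127 genes were called in either direction. Litter 4 also stood apart in markers: its mesenchyme list summed to 1415 CPM in con and 1308 CPM in R2b, where the other pools had 99.6 to 488 CPM, and its blood list to 1660 and 642 CPM. With all litters and no block, no mesenchyme, endothelium, blood, surface ectoderm or pharyngeal endoderm marker was called in that exposure, and without litter 4 1 endothelium marker was called lower and 1 pharyngeal endoderm marker higher. In the fit with the block, 3 of 4 surface ectoderm, 2 mesenchyme and 1 pharyngeal endoderm marker were called higher, and 1 mesenchyme, 4 endothelium and 2 blood markers lower. Of the 11 otic epithelium markers, 2 were called higher and 2 lower without the block, and 5 and 2 with it. Pax2 was higher (0.64, FDR 0.000768) and Hmx2 lower (-1.05, FDR 0.00948) in edgeR. Without litter 1, or without litter 2, 1 otic marker was called higher and 0 lower. The part of these cells in the members' levels was not tested.

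At E10.25+24h none of the 10 members was called by edgeR, DESeq2 or the fit with the litter as a block. No gene was called by edgeR (0% of 15203, with 175 at an unadjusted p under 0.05) or DESeq2. Without litter 1, 2430 of 15195 genes had an unadjusted p under 0.05 in edgeR, and again 0 were called. The absence of calls is not read as an absence of effect. With all litters, no member had every R2b library above every con library, against 0.474% of genes. The libraries labelled con had 68.4, 46.7, 41.0 and 31.6 CPM of Krt7 in litters 1 to 4, and those labelled R2b had 55.8, 59.6, 47.7 and 52.2 CPM. The highest of the 8 was the library labelled con of litter 1, the one with 679 CPM of Ighg1. Krt7 differed by 0.20 (SE 0.20) on the log2 scale, and by 0.44 (SE 0.15) without litter 1, where the groups no longer overlapped.

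Anxa2 had 191, 138, 116 and 75.8 CPM in the 4 libraries labelled con, where the 4 labelled R2b had 156, 117, 130 and 142 CPM. Here too the library labelled con of litter 1 was highest, and litter 4 of con was lowest. The log2 difference was 0.07 (SE 0.24), and 0.26 (SE 0.20) without litter 1, with R2b higher in 2 of the remaining 3 litters. For Anxa5 the libraries labelled con had 155, 83.4, 96.3 and 94.8 CPM, and the libraries labelled R2b had 113, 120, 117 and 119 CPM. Outside litter 1 the groups of Anxa5 did not overlap, and its log2 difference went from 0.13 (SE 0.17) to 0.39 (SE 0.07).

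The abundant keratins showed little difference at this stage. Krt8 differed by 0.01 (SE 0.08), Krt18 by -0.01 (SE 0.10) and Krt19 by -0.08 (SE 0.10) on the log2 scale. Without litter 1 these were 0.02 (SE 0.10), 0.03 (SE 0.11) and 0.02 (SE 0.09). Krt8 ranged from 110 to 140 CPM over libraries labelled con and from 117 to 133 CPM over those labelled R2b. S100a10 differed by 0.17 (SE 0.16), Anxa6 by 0.12 (SE 0.10), Anxa3 by 0.18 (SE 0.28) and Anxa1 by 0.07 (SE 0.30). Without litter 1 the difference of S100a10 was 0.34 (SE 0.15), that of Anxa6 0.15 (SE 0.10), that of Anxa3 0.29 (SE 0.33) and that of Anxa1 0.13 (SE 0.31).

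R2b exceeded con for 1 of 10 members in litter 1 of E10.25+24h and for 7, 8 and 7 of 10 in litters 2, 3 and 4. Of all genes tested, 51.4% were higher in litter 1 and 47.5%, 48.8% and 48% in litters 2, 3 and 4. In the earlier exposures the members' count was 9 or 10 of 10 in each of 7 litters, where 45.8% to 50% of all genes were higher. The members are not independent of one another, and the choice used both 24 hour exposures, so these counts are descriptions. Without litter 1 and with the litter as a block, edgeR called 1 member, Anxa5, where 2.79% of genes were called higher. The same fit called 2 mesenchyme and 2 otic epithelium markers higher, and 2 surface ectoderm markers and 1 endothelium marker lower. The surface ectoderm list summed to 56.5 to 178 CPM in con and 36.9 to 59.4 CPM in R2b without litter 1. Its median log2 fold change was then -3.46 in the fit without the block, with 1 of 6 genes positive and 0 called. The part of these cells in the members' values was not tested. R2b lay above every con library for 2 members, Krt7 and Anxa5, against 10.7% of genes. The median of the 10 was 0.10 with all litters and 0.21 without litter 1. In litter 3 the pool labelled R2b had 5012 CPM of blood markers, where the other 7 libraries had 167 to 705 CPM, and the part of blood RNA in its values was not tested.

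**Figure D3:**
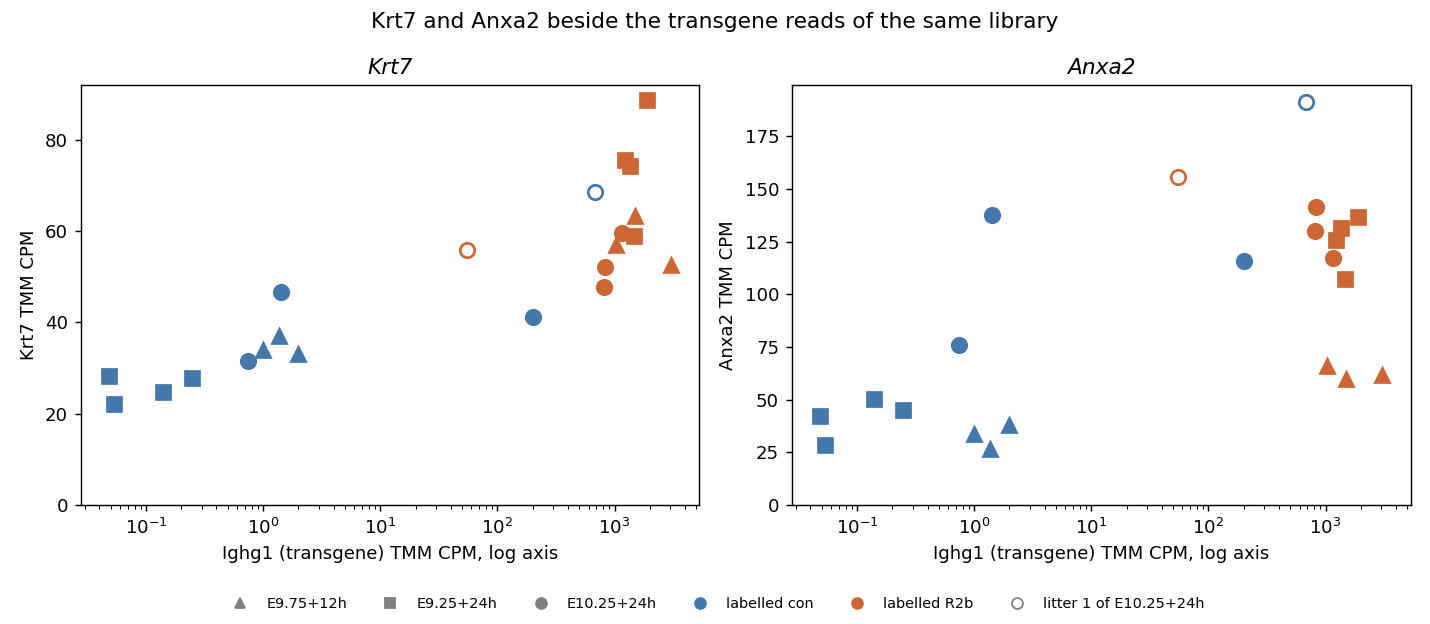
Krt7 and Anxa2 CPM (vertical axes, from 0) against Ighg1 CPM of the same library (horizontal log axis) in 22 libraries, by exposure (shape) and label (blue con, orange R2b); open circles are litter 1 of E10.25+24h. The library labelled con of that litter, at 679 CPM of Ighg1, has 68.4 CPM of Krt7 and 191 CPM of Anxa2, the highest of its exposure.

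Levels of the members across the 6 groups followed different orders. Krt7 was highest in E9.25+24h R2b (74.3 ± 12.2 CPM, SD, n = 4), then E9.75+12h R2b (57.6 ± 5.36, n = 3), E10.25+24h R2b (53.8 ± 5.08, n = 4) and E10.25+24h con (46.9 ± 15.6, n = 4). E9.75+12h con (34.6 ± 2.11, n = 3) and E9.25+24h con (25.7 ± 2.88, n = 4) came last, and only this last pair of neighbours did not overlap. Anxa2 was highest in both groups of E10.25+24h, at 136 ± 16.5 CPM in R2b and 130 ± 48.1 CPM in con (SD, n = 4), followed by E9.25+24h R2b at 125 ± 12.9 CPM. These 3 overlapped, while E9.75+12h R2b at 62.5 ± 3.16 CPM (n = 3) stood apart below them. The con pools of E9.25+24h (41.5 ± 9.31) and E9.75+12h (32.6 ± 5.85) were lowest for Anxa2. Anxa1 and Anxa5 likewise had their highest means at E10.25+24h, in R2b and con, whereas Krt8 and Krt18 had theirs in E9.25+24h R2b. Without litter 1 the E10.25+24h means of Anxa2 were 129.6 ± 12.3 CPM in R2b and 109.7 ± 31.3 CPM in con (SD, n = 3), which puts con below E9.25+24h R2b. For Krt7 they were 53.1 ± 6.01 and 39.8 ± 7.64 CPM, in the same order.

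Ratios within the families were computed per length in each library. Krt8 per Krt18 stayed between 0.305 ± 0.00802 (E9.75+12h con, SD, n = 3) and 0.420 ± 0.0316 (E10.25+24h R2b, SD, n = 4) in all 6 groups, and the latter was 0.404 ± 0.00523 without litter 1 (SD, n = 3). Within E9.25+24h it was 0.407 ± 0.0198 in con and 0.392 ± 0.0154 in R2b, with overlap. Krt7 per Krt8 went from 0.0964 ± 0.0207 in con to 0.206 ± 0.0118 in R2b at E9.25+24h, and from 0.166 ± 0.0130 to 0.215 ± 0.0102 at E9.75+12h. In both exposures no library of one genotype overlapped the other. The choice used the effect of Krt7 at E9.25+24h, so its ratio there is only a description. At E9.75+12h, which the choice did not use, Krt7 and Krt8 differed unequally. At E10.25+24h Krt7 per Krt8 was 0.108 to 0.269 in libraries labelled con and 0.172 to 0.244 in those labelled R2b. Without litter 1 the means were 0.156 ± 0.0473 and 0.204 ± 0.0366 (SD, n = 3), with overlap.

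As a share of the 5 annexins per length, Anxa2 made up 31.8 ± 2.41% in con and 49.0 ± 4.20% in R2b at E9.25+24h (SD, n = 4), and Anxa5 made up 40.2 ± 6.49% and 29.8 ± 1.34%. The choice used the effect of Anxa2 in that exposure, so these shares are only a description. At E9.75+12h the share of Anxa2 was 30.4 ± 0.769% in con and 35.1 ± 1.62% in R2b (SD, n = 3). At E10.25+24h it was 46.9 ± 6.86% in libraries labelled con and 46.6 ± 2.96% in those labelled R2b (SD, n = 4), and 45.8 ± 7.98% and 45.5 ± 2.49% without litter 1 (SD, n = 3). Anxa2 per S100a10 was 2.22 ± 0.504 and 2.19 ± 0.572 there, where the con pools of E9.25+24h had 0.920 ± 0.249. Without litter 1 the ratio was 1.98 ± 0.205 in con and 1.90 ± 0.0259 in R2b (SD, n = 3).

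Across the 22 libraries, with each exposure centred on its own mean, Krt8 and Krt18 had r = 0.95 and each was the other's nearest gene among 12806. Krt7 and Anxa2 had r = 0.94. Krt7 was the gene nearest to Anxa2, and Anxa2 was at rank 3 for Krt7. Without E10.25+24h litter 1 their r was again 0.94, at ranks 3 and 5, and Krt8 and Krt18 remained nearest to each other (r = 0.96). Krt8 was less close to Anxa2 (r = 0.49) and had r = -0.03 with Anxa3, while Anxa3 and Anxa6 had r = 0.85. The points share litters, depth and the genotype contrast itself, so these values describe the libraries only. Krt7 and Anxa2 were also chosen on their effects at E9.25+24h and E10.25+24h. Their closeness to each other therefore follows in part from the choice, and nothing is read from their ranks. Outside the group, the genes nearest to Krt7 were Ccdc80 (r = 0.95), Afap1l2 (0.95), Cryab (0.94), Tcn2 (0.94) and Wdr72 (0.93). Those nearest to Anxa2 were Rnase4 (0.94), Wdr72 (0.93), Cpxm2 (0.93), Wls (0.93) and Emp1 (0.92). Without that litter Col11a1 took the place of Wdr72 among the 5 nearest to Krt7, and Smim24 that of Emp1 for Anxa2.

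The other genes of the same families and their partners were read from lists, and the counts called in them stand beside those of all genes. At E9.75+12h 1518 of 14882 genes were called higher, and 20.0% in either direction. At E9.25+24h 9.09% were called higher, and 15.6% in either direction. With the litter as a block 5.79% and 20.5% were called higher in these exposures. Without litter 1, 434 and 322 genes were called in either direction. Of 4 other annexins tested, 2 rose at E9.75+12h, Anxa4 (log2 fold change 0.64, FDR 0.00599) and Anxa9 (1.04, FDR 0.0257), and the list's median was 0.57. At E9.25+24h 3 of 4 were called higher in edgeR, with Anxa9 at 1.23 (FDR 0.0214), Anxa4 at 0.36 (FDR 0.0269) and Anxa7 at 0.36 (FDR 0.0461). No annexin outside the group was called lower in either exposure. Anxa9 lost its call at E9.75+12h with the litter as a block (FDR 0.0659), and without litter 1 none of the 4 was called in either exposure.

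S100 proteins are the calcium-binding family of S100a10. Of 15 others listed 5 had a row and were tested, and of these 3 rose at E9.75+12h and 4 rose at E9.25+24h, with list medians of 0.75 and 1.30. S100a1, which acts in muscle and nerve calcium handling, had 25.0 ± 1.78 CPM in con and 63.4 ± 16.2 CPM in R2b (SD, n = 3) at E9.75+12h, with an FDR of 0.000636 in edgeR. At E9.25+24h it went from 9.97 ± 2.69 to 42.6 ± 7.52 CPM (SD, n = 4; FDR 0.000831, edgeR). S100a11, a partner of Anxa1, had log2 fold changes of 0.56 (FDR 0.0169) and 1.03 (FDR 0.00252) in the same exposures in edgeR. S100a13 had 1.23 (FDR 0.00998) and 1.66 (FDR 0.00263). Without litter 1, 1 S100 gene was called at E9.75+12h, and 3 were called at E9.25+24h.

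The list of annexin partners and membrane repair genes had 6 of 12 called higher at E9.75+12h and 5 of 11 at E9.25+24h, and none lower. Capn1, the large subunit of calpain 1, rose by a log2 fold change of 0.97 (FDR 0.000450) and 1.08 (FDR 0.00204) in these exposures. Dysf, the membrane repair protein dysferlin, rose by 1.01 (FDR 0.000610) and 0.83 (FDR 0.000474), all in edgeR. Its relative Myof had 1.08 (FDR 0.00196) at E9.75+12h, and Capns1, the small calpain subunit, had 0.32 (FDR 0.00749) at E9.25+24h. In the same order the list's median was 0.34 and 0.32, where all genes had 0.01 and -0.01. With the litter as a block 8 were called higher at E9.25+24h, where 20.5% of all genes were. Without litter 1 the counts were 3 and 2, where 434 and 322 genes were called in either direction.

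Proteins that anchor keratins were counted as linkers and desmosomal genes. At E9.75+12h 5 of 13 were called higher and none lower, with Dsp (desmoplakin, which ties keratin to desmosomes) at 0.76 (FDR 0.000886), Jup (plakoglobin) at 0.63 (FDR 0.0117) and Dsc2 at 0.44 (FDR 0.0216), in edgeR. At E9.25+24h 5 of 14 were called higher, with Dsp at 0.86 (FDR 0.00510) and the plakin Ppl at 0.81 (FDR 0.0161). Pkp1, a plakophilin, was the one called lower (-3.51, FDR 0.00373), from 0.703 to 1.84 CPM in con to 0.0477 to 0.0971 CPM in R2b. With the litter as a block 2 were called higher at E9.75+12h, Dsc2 no longer among them (FDR 0.0635), and 7 higher and 2 lower at E9.25+24h. Without litter 1 the counts called higher were 2 and 1, with 1 called lower at E9.25+24h.

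Of 11 other intermediate filament genes tested at E9.75+12h, 3 rose and 2 fell, and of 10 at E9.25+24h, 1 rose and 2 fell. Without litter 1, 1 rose and 1 fell at E9.75+12h, and none was called at E9.25+24h. Vim, the filament of mesenchyme that many embryonic epithelia also hold, rose by 0.77 (FDR 0.00438) and 0.81 (FDR 0.0169) in edgeR, and lost both calls without litter 1 (FDR 0.0746 and 0.105). Lmnb1, the nuclear lamin B1, fell by 0.63 (FDR 0.00169) and by 0.30 (FDR 0.0232). Ina, a neuronal filament, rose at E9.75+12h (1.37, FDR 0.0154), and Synm fell at E9.25+24h (-1.05, FDR 0.0109). Other keratins had few calls: Krt1 at E9.75+12h (1.27, FDR 0.0351), lost with the litter as a block (FDR 0.0805), and Krt20 at E9.25+24h (1.75, FDR 0.00521), of 6 tested in each exposure, both with group means under 3 CPM. Among 11 epithelial transcription and splicing factors, Klf5 (0.71 and 0.78) and Elf3 (0.60 and 0.70) rose in both exposures, with FDRs of 0.00518 and 0.0235 for Klf5 and 0.0156 and 0.0205 for Elf3, and Esrp2 rose at E9.75+12h (0.54, FDR 0.0284), in edgeR. With the litter as a block Esrp2 missed the threshold (FDR 0.0608), and 4 factors were called higher and 1 lower at E9.25+24h. Without litter 1 none of these 11 was called in either exposure.

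At E10.25+24h no gene of these 7 lists was called by edgeR with litter 1 or without it. With litter 1 left out and the litter fitted as a block, 2 other S100 genes and 2 annexin partners were called higher and 2 epithelial transcription or splicing factors lower.

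**Figure D4:**
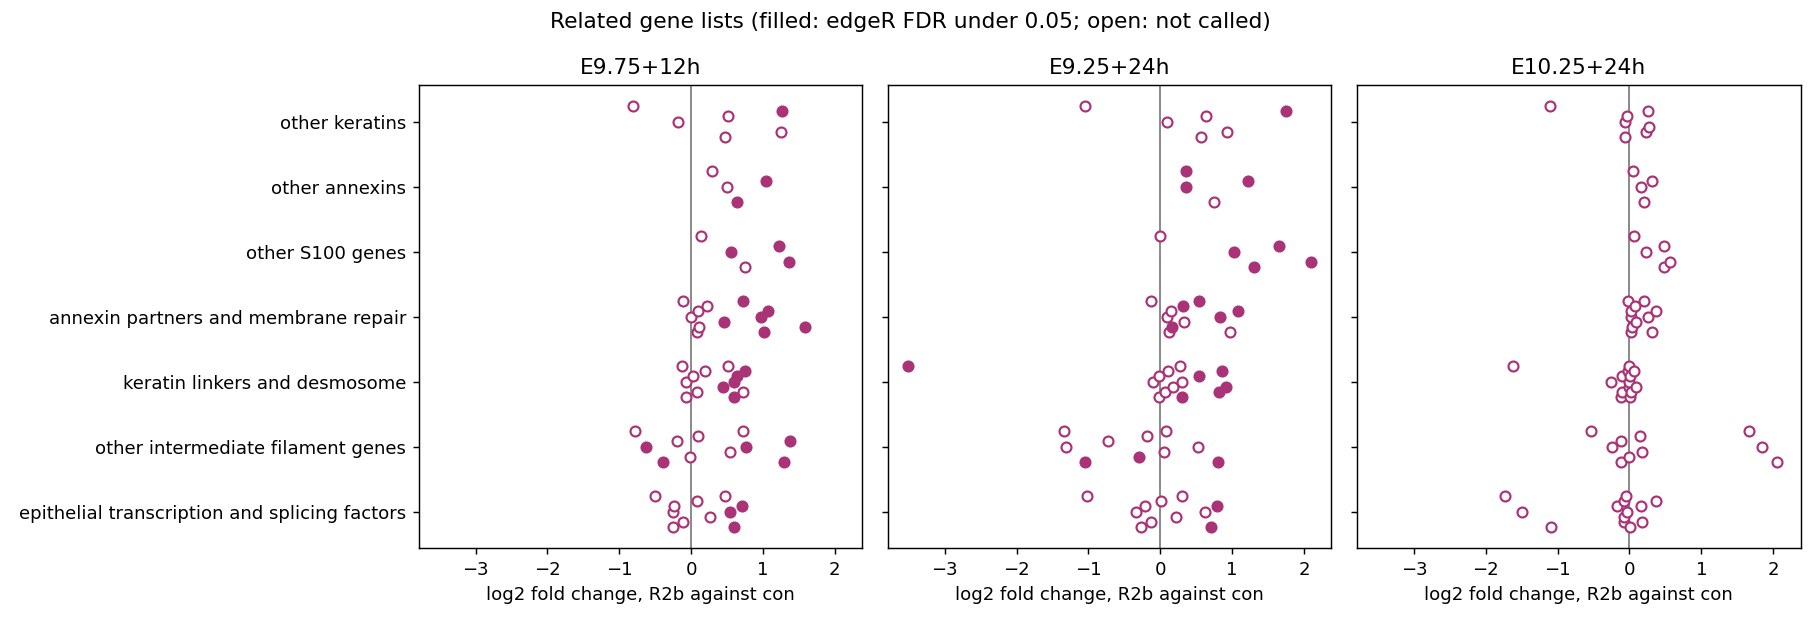
Log2 fold change of R2b against con (horizontal axis) for the genes of 7 related lists (rows) in the 3 exposures; each point is a gene, filled where edgeR's FDR was under 0.05, and vertical offsets only separate points. Filled points of the annexin, S100 and annexin partner lists lie right of 0 at E9.75+12h and E9.25+24h, and there are none at E10.25+24h.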

How the data were processed

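RNA of otocyst epithelium pools was sequenced from stranded poly(A) libraries. The deposited table holds raw counts of 15736 genes. Per the submitters' processing notes, reads were aligned with Novoalign 2.08.03 and the build was mm10. The counting tool, annotation and gene filter are not given in the sources used here. The gene with the fewest reads had 108 counts over all columns. Symbols, positions and transcript lengths came from GENCODE M21 and promoter windows from RefSeq GRCm38.p6. Columns were joined to samples by the library numbers in the titles. Of 24 samples 22 had a column, 2 samples of E9.75+12h were not analysed here, and 2 columns that matched no sample were not used.

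Each exposure was fitted alone in edgeR 4.0.16 (R 4.3.3) with filterByExpr, TMM and the quasi-likelihood test of R2b against con, and an FDR under 0.05 was a call. SEs were derived from the F statistic. The difference between exposures was a contrast of 6 group means. CPM used TMM factors over 22 libraries, and correlations used log2 CPM with a prior count of 2 in genes with a mean log2 CPM of at least 1. The scripts were tested on simulated data. Per the labels, both pools of a litter came from 1 female, so the litter pairs the samples. Deviations from the group means correlated between the pools of a litter with r of -0.31 to -0.17 (E9.75+12h), 0.52 to 0.83 (E9.25+24h) and -0.17 to 0.44 (E10.25+24h). Replicate libraries differed by more than counting error (chi-square per degree of freedom 5.48 to 44.2). Reads carry no molecular identifiers.

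The members and the lists were chosen with earlier results of these data known. Named genes are the members, Ighg1 and Fgfr2 as a check of labels, at most 3 called genes per list and exposure by FDR, marker genes, and the 5 genes nearest to Krt7 and to Anxa2. Alternatives were other size factors, no filter, DESeq2 1.42.0, all libraries in 1 fit, the litter as a block, and each litter or library left out. Alternatives for CPM means, ratios, shares and list counts were chosen after seeing the data. One marker of surface ectoderm and one of otic epithelium are not reported here. Overlapping genes annotated at the members (antisense or small RNA genes) were not analysed here, and Krt8 has 1 named pseudogene, which could share its reads.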

Additional observations from a re-analysis of the deposited data

Results flagged for a closer look

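Of 40 sets of 4 libraries (10 members in 4 groups), 2 held a library flagged by an outlier limit. The limit was set on its distance from its nearest neighbour, as a share of the set's range. By chance about 1 in 20 sets pass that limit. Krt18 in the E9.25+24h R2b pools had 246.8 CPM in litter 4, where the other litters had 344 to 355 CPM, a gap of 0.891 of the range. The con pool of the same litter was also lowest for Krt18, at 176 CPM. Anxa5 in the E9.25+24h con pools had 54.81 CPM in litter 3, where the other litters had 62.6 to 63.3 CPM, a gap of 0.913 of the range.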

How the results depend on the processing

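At E9.75+12h the genes called numbered 2973, 4560 with all libraries in 1 fit, 1775 with the litter as a block, and 434 to 4583 with 1 litter or library left out. The 8 members called there became 5 with the litter as a block and 1 to 7 with 1 litter or library left out. At E9.25+24h the genes called numbered 2335, 3260 in DESeq2, 6086 with the litter as a block and 322 to 2289 with 1 left out. The 5 members called became 8 in DESeq2, 10 with the litter as a block and 4 to 9 with 1 left out. At E10.25+24h the block with litter 1 left out called 614 genes and 1 member, and every other alternative run called 0 of both. The log2 fold change of Anxa1 at E9.75+12h was -0.13 without litter 2 (range -0.13 to 0.84 over litters left out), the only one of the 10 members there whose sign turned. At E10.25+24h, where none was called, 7 of 10 members had either sign across the alternatives. At E9.25+24h none did. The cause was not tested. Beside the calls given with the results, the block on litters changed no other call of a gene named there as called. The Krt8 call at E9.75+12h was lost in 10 of 14 alternatives, DESeq2 size factors and no filter among them (FDR up to 0.495), and that of Anxa3 in 10 of 14 (up to 0.225). The S100a10 call at E9.75+12h was lost in 7 of 14 (up to 0.132), and its log2 fold change fell to as little as 0.30 with 1 litter left out. Anxa2 kept its call in 14 of 14 (up to 0.0314). The difference between exposures ranged from -1.74 to -1.32 for Anxa2, and moved by less than the spread between litters for all 10 members. With 3 or 4 litters a group, leaving out 1 litter changed each count of genes called at E9.75+12h and E9.25+24h. Depth limits Anxa1 and Anxa3 most, at 10 and 37 counts in their lowest libraries.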
